A study of Mus musculus with 28 samples.

Results

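Melanocytes and dermal fibroblasts sorted from the same kind of dermal preparation were compared across all genes. The comparison used 4 of the 28 libraries of the series: 2 of melanocytes (Mc_1 and Mc_2) and 2 of dermal fibroblasts (DF_1 and DF_2). The skin was taken from the back at postnatal day 5, in mice of a background the labels give as FVB/N, C57BI/6J and CD1 mixed. All carried the Lef1-RFP reporter and came from skin with the K14-H2BGFP transgene, whose keratin 14 promoter marks nuclei of basal keratinocytes. Melanocytes were the Lef1-RFP+ cells that were also CD117+, CD117 being the receptor tyrosine kinase Kit. Fibroblasts were the Lef1-RFP+ cells that were CD117- and ITGA9-, the last being integrin alpha 9. The labels number the libraries 1 and 2 but do not say whether they came from separate animals. The p-values thus measure only a spread between libraries, which may be technical. That spread was estimated over all 28 libraries of the series, not from these 4 alone. A library holds RNA of many cells, so fewer cells of a type and less RNA per cell cannot be told apart.

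Genes entered the comparison when at least 2 of the 4 libraries reached 1 FPKM (a measure of fragments corrected for transcript length and library size). Of 23015 rows, 12506 did so and 10509 did not. Differences are melanocytes minus fibroblasts on the log2(FPKM + 1) scale with their standard error, and this scale understates changes of low genes. A gene was called when its adjusted p (limma, Benjamini-Hochberg over the 12506 genes) was under 0.05 and the log2 difference was at least 1 in size. FPKM give no count of fragments, so the depth behind a value is unknown, and a value of exactly 0 may be a failed estimate.

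Melanocytes are neural crest cells that reach the skin along nerves and through the dermis, depend on Kit, endothelin and Met signals, and settle in the hair bulb, where they pass pigment to the growing shaft. Their melanosomes are relatives of the lysosome and share its proton pump and many of its enzymes. Dermal fibroblasts are mesodermal in back skin, lay down the matrix, and secrete many of the factors that epidermal, follicular and pigment cells read.

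The labels were checked against their markers first. Kit stood at 683 and 784 FPKM in the melanocytes and 40.2 and 55.4 in the fibroblasts, a log2 difference of 3.93 ± 0.56. Mlana, a melanosome protein, was at 5040 and 5033 against 297 and 304. Col3a1, a fibrillar collagen, was at 9.47 and 5.30 against 832 and 2358, the largest difference of all called genes (-7.43 ± 0.44). These genes separated the sorts in the labelled direction with no overlap. Integrin alpha 9 itself (Itga9) read 28.6 and 47.0 FPKM in the melanocytes and 9.37 and 29.8 in the fibroblasts, so the groups overlapped and it was not called (adjusted p = 0.131, limma). Without DF_2 its difference was 1.86 with an adjusted p of 0.0201. Lef1, whose reporter was used in both gates, was at 76.7 and 119 against 125 and 56.1 FPKM, overlapped between the sorts and was not called (adjusted p = 0.815, limma).

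Both sorts held RNA of genes listed as markers of other cell types, and several of these sums were higher in the fibroblast libraries. The 12 fibroblast markers summed to 59.2 and 27.7 FPKM in the melanocytes and 3000 and 6748 in the fibroblasts. Of these 12, 11 were called lower in melanocytes and 1 was not called, with a log2 difference of 0.09. The 10 melanocyte markers summed to 17564 and 14740 FPKM in the melanocytes, and to 1470 and 1497 in the fibroblasts, where each single marker stood at 5.92 to 20.5% of its melanocyte level. In the fibroblasts, 12 keratinocyte markers summed to 1008 in DF_1 and 288 in DF_2 (71.5 and 48.1 in the melanocytes), and 13 smooth muscle and pericyte markers to 783 and 756 (15.8 and 7.17). Dermal papilla markers summed to 568 and 833 in the fibroblasts and Schwann cell markers to 296 and 412, against 73.0 and 112 and 136 and 113 in the melanocytes. Krt14 was at 46.3 in DF_1 and 11 in DF_2, against 5.75 and 3.58 FPKM, and its call was lost without DF_1 (log2 -1.11, adjusted p = 0.159, limma) and without Mc_2 (adjusted p = 0.0606). Mast cells also display Kit, and 1 of their markers, the tryptase Tpsb2, was at 15.4 and 27.3 in the melanocytes against 0.240 and 2.86. Of the 11 mast cell markers in the table, 7, among them Cpa3, were at 0 in both melanocyte libraries. Endothelial, leukocyte, erythroid, adipocyte and skeletal muscle markers summed to at most 52.2 FPKM in a melanocyte library and 101 in a fibroblast library. A sum of markers cannot separate admixed cells from a sort's own expression of these genes. The part of either in any difference below was not tested.

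**Figure D1:**
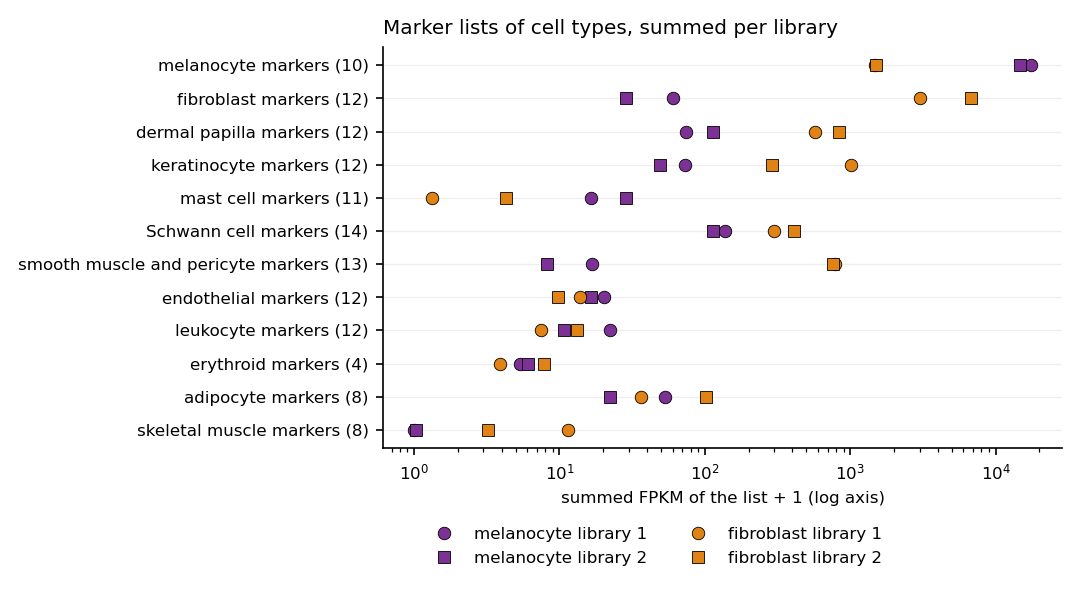
Summed FPKM plus 1 (log axis) of 12 marker lists in the 2 melanocyte and 2 fibroblast libraries, with the number of genes in the table in brackets. Fibroblast, dermal papilla, keratinocyte, Schwann and pericyte sums are higher in both fibroblast libraries, and the melanocyte sum in the fibroblasts is about 1470 FPKM.

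Of the 12506 genes, 2773 (22.2%) were called: 1060 (8.48%) higher in melanocytes and 1713 (13.7%) lower. With all FPKM totals made equal, an alternative chosen after seeing the data that moved the median of all genes from 0.13 to -0.19 (a shift of -0.32), the split was 613 higher and 2065 lower. The totals were 451512 and 407854 in the melanocytes and 339299.7 and 325892 in the fibroblasts, while the upper quartiles lay close together at 10.31 to 10.79. Large called differences lay mostly on the fibroblast side. Of all genes tested, 1147 had passed the filter only through the fibroblasts and 163 only through the melanocytes. The fibroblast libraries also held melanocyte markers at 5.92 to 20.5% of their melanocyte level. The part of either in the imbalance was not tested. Among called genes, a log2 difference of at least 4 was found for 8 higher in melanocytes and 183 lower, and of at least 6 for 0 higher and 20 lower. Of the lower genes, 225 were listed at 0 in both melanocyte libraries, and of the higher genes 10 in both fibroblast libraries. With each library left out in turn, 430 of the higher and 1054 of the lower genes were called every time.

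**Figure D2:**
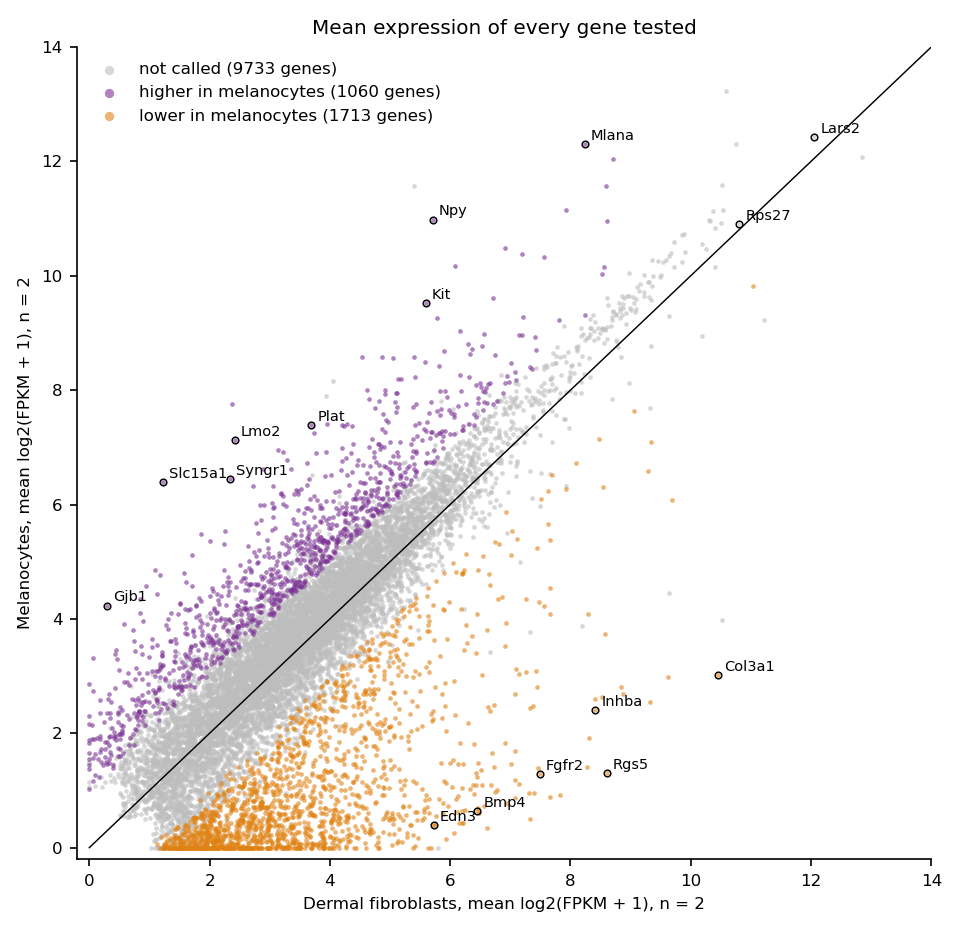
Mean log2(FPKM + 1) of each of the 12506 genes tested in fibroblasts (horizontal) and melanocytes (vertical), n = 2 libraries each, coloured by call, with the line of equal levels. The 1713 genes lower in melanocytes reach farther from the line than the 1060 higher genes.

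The other 6 populations sorted from the same mouse line place these genes among the skin cells. Of the 1060 genes higher in melanocytes, 922 had their highest mean of all 8 populations in the melanocytes, 120 in a keratinocyte sort, 15 in the dermal papilla and 3 in the marker-negative mixture. Of the 1713 lower genes, 426 were highest in the fibroblasts themselves. The dermal papilla was highest for 614 of them, a keratinocyte sort for 606 and the marker-negative mixture for 67. Many genes on the fibroblast side were thus higher in some other skin population than in the fibroblast sort. The call itself keeps a higher gene from peaking in the fibroblasts and a lower gene from peaking in the melanocytes. The same shares over all tested genes were not computed, so 922 and 426 are a description only.

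Outside pigment genes, the 15 largest melanocyte differences belonged to a neuropeptide, transporters, receptors and signalling genes. Npy (chr6:49822710-49829507), which encodes neuropeptide Y, stood at 1656 and 2467 FPKM in the melanocytes and 23.5 and 111 in the fibroblasts (log2 5.27 ± 1.14, adjusted p = 0.00154, limma). It was far above both fibroblast libraries, but with a pseudocount of 0.1 its adjusted p was 0.0511. Slc15a1 (chr14:121459621-121505254), the proton-coupled transporter of small peptides, was at 48.3 and 142 against 0.330 and 3.10 (5.17 ± 0.71). Lmo2 (chr2:103957903-103981878), a LIM-domain adaptor of transcription factor complexes best known in blood, was at 82.2 and 235 against 2.25 and 7.80 (4.71 ± 0.64). Mc_2 was well above Mc_1 for both genes, and neither overlapped the fibroblasts.

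Several of these genes are better known from glia and neurons. Gjb1 (chrX:101376376-101385629), the connexin of Schwann cell myelin, was at 19.8 and 16 FPKM against 0.486 and 0 (3.95 ± 0.33), and its means in the other 6 populations of the line were at most 0.444. Syngr1, a synaptic vesicle protein, was at 112 and 65.9 against 8.94 and 1.57 (4.11 ± 0.56). Glrb, the beta subunit of the glycine receptor, was at 88.8 and 163 against 4.97 and 13.4 (3.71 ± 0.79). All 4 values of each gene separated the sorts. Gpm6a, a neuronal membrane glycoprotein, was at 81.6 and 183 against 5.10 and 11.8, and lost its call with a pseudocount of 0.1 (adjusted p = 0.0594, limma). Beside these, 9 of 14 Schwann cell markers were lower in melanocytes and 1 higher, 7 of the 14 having passed the level filter through the fibroblasts alone.

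Secreted and metabolic genes made up the rest. Plat, tissue plasminogen activator, was at 128 and 216 FPKM against 10.6 and 13.3 (3.69 ± 0.47). Trf, the iron carrier transferrin, was at 20.5 and 38.2 against 1.76 and 0.635 (3.77 ± 0.59). Pcolce2, an enhancer of procollagen trimming, was at 60.2 and 31.7 against 2.46 and 2.79 (3.63 ± 0.51). Both melanocyte libraries were above both fibroblast libraries for each of the 3. Gstp2, a glutathione transferase whose reads may be shared with its near copy Gstp1, was higher by 3.64 ± 0.58. The sugar-nucleotide enzyme homologue Uap1l1 was higher by 3.60 ± 0.61 and Gal3st4, a galactose sulfotransferase, by 3.59 ± 0.53. The remaining members of the 15 were Kit, on which the cells were gated, and Etv5, which is described with its pathway.

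**Figure D3:**
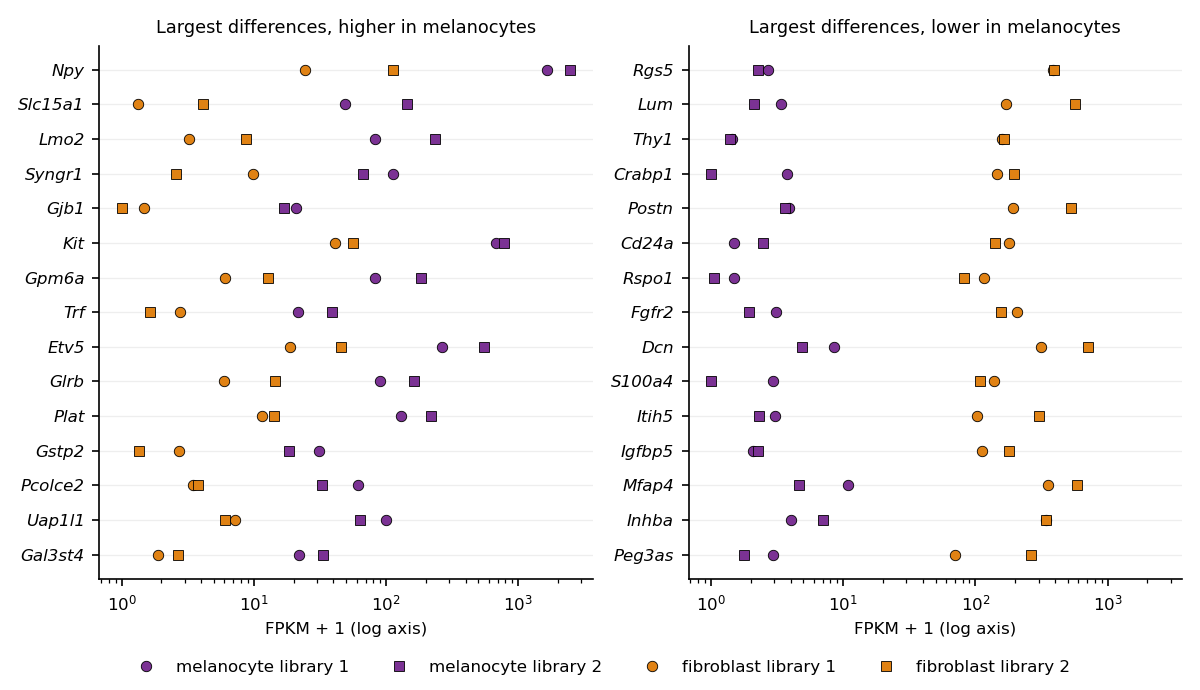
FPKM plus 1 (log axis) in each of the 4 libraries for the 15 largest called differences in each direction, pigment genes and collagens left out. In every row both melanocyte libraries lie on one side of both fibroblast libraries, with Npy highest among the melanocyte genes.

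On the fibroblast side the largest difference outside collagens was Rgs5 (chr1:169655501-169695813), a regulator of G protein signalling typical of pericytes, at 1.72 and 1.25 FPKM against 386 and 389.9 (-7.30 ± 0.66). It was far lower in the dermal papilla, at 4.66 ± 3.50 (SD, n = 2), so the fibroblast sort carried a pericyte gene at a high level in both libraries. Thy1, a surface protein of dermal fibroblasts, was at 0.454 and 0.393 against 158 and 163 (-6.83 ± 0.65). The matrix proteoglycans Lum and Dcn, the periostin gene Postn and the elastic fibre gene Mfap4 lay between -6.86 and -6.02, and DF_2 was the higher fibroblast library for these 4.

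Other genes in the top 15 carry signals. Fgfr2, a receptor for fibroblast growth factors, was at 2.09 and 0.943 FPKM against 206 and 155 (-6.20 ± 0.25). Inhba, which encodes the activin A subunit, was at 3.02 and 5.98 against 338 and 340.2 (-6.01 ± 0.43), and was higher still in the dermal papilla at 916 ± 59.1 (SD, n = 2). Rspo1, an amplifier of Wnt signalling, was at 0.502 and 0.0614 against 116 and 80.3 (-6.27 ± 0.55). Igfbp5, which binds insulin-like growth factors, was at 1.07 and 1.25 against 112 and 178 (-6.04 ± 0.42). Crabp1, Cd24a, S100a4, Itih5 and Peg3as completed the list at -6.44, -6.35, -6.17, -6.06 and -5.89. Every one of the 15 was below 10 FPKM in both melanocyte libraries.

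Genes were then grouped in 34 lists of pathways and protein families. Lists are described by counts of called members and by the median log2 difference, beside 8.48% higher, 13.7% lower and a median of 0.13 for all genes tested. Some are also described by how many members had a higher or lower mean. Of the 12506 genes tested, 7120 had a positive difference and 5386 a negative one. Counts of members in the table also hold members below the filter, for which no such share was computed. A member that passed the level filter only through the fibroblasts had to be lower in melanocytes. Such members stay in the counts and medians, and their number is given in groups with at least 5 of them. The lower counts and medians of those groups thus rest in part on the filter. The pigment and melanosome list is given only for scale: 29 of its 36 tested members were higher, none lower, with a median of 2.30.

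**Figure D4:**
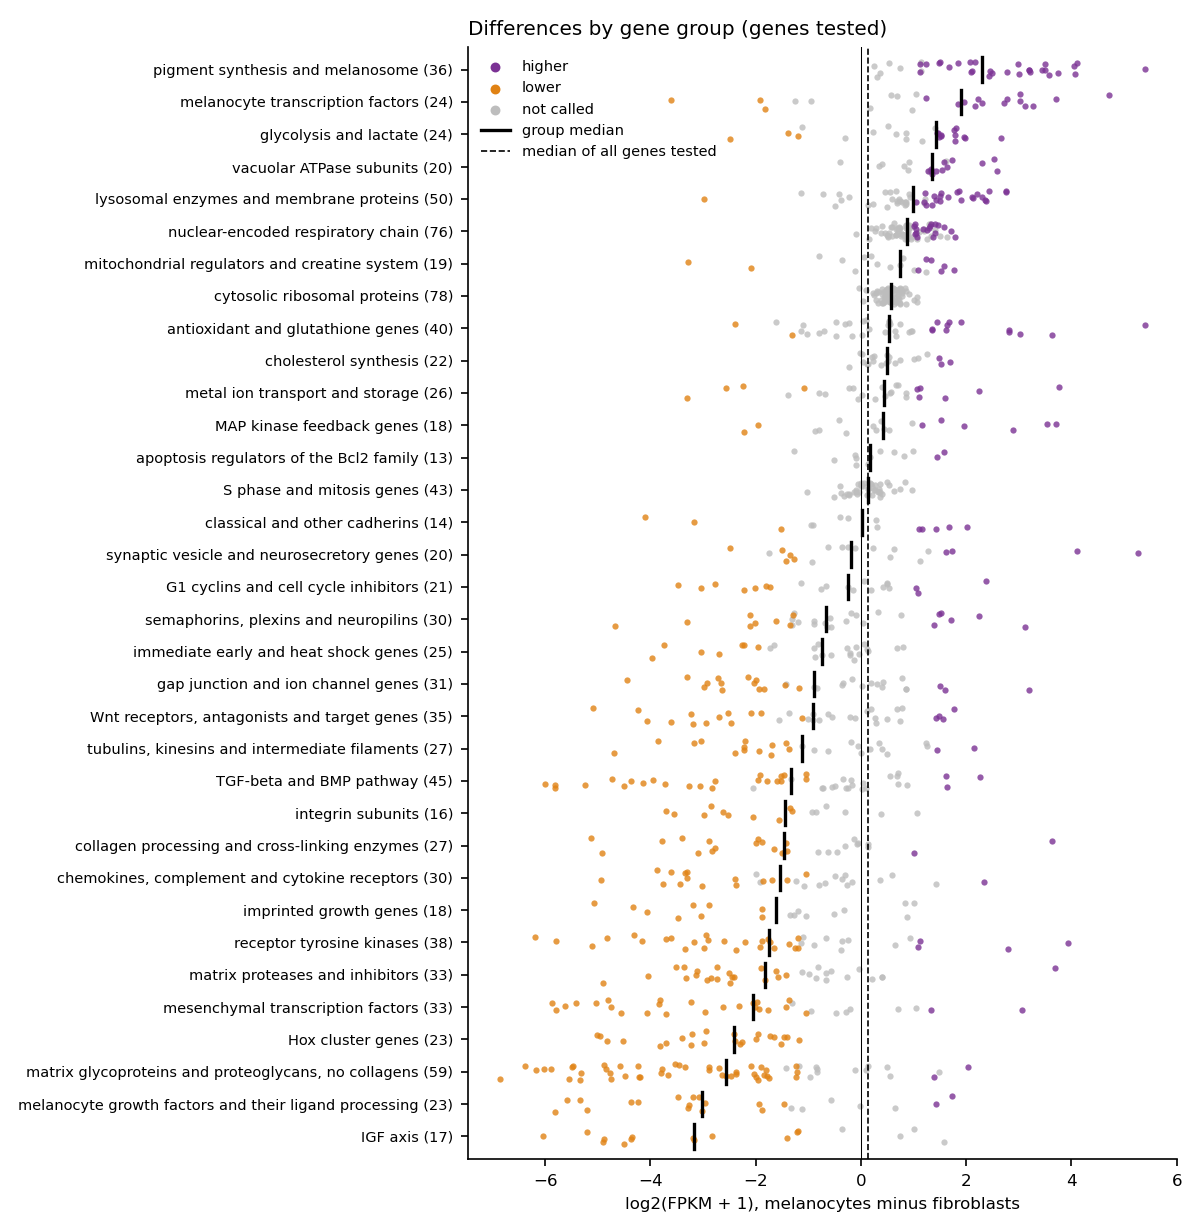
Log2 differences of the tested members of 34 gene groups (number in brackets), coloured by call, with the group median (bar) and the median of all genes tested (dashed). Groups are ordered by median, from 2.30 for pigment genes to -3.17 for the insulin-like growth factor axis.

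Transcription factors of the 2 lineages were compared next. Of 26 listed melanocyte factors 24 were tested, of which 14 were higher and 3 lower (median 1.90). Besides Lmo2, the largest were Etv5, Bhlhe41 at 87.2 and 109.6 FPKM against 6.82 and 12.5 (3.27 ± 0.56), and Irf4, a pigmentation regulator, at 119.9 and 91.3 against 12.0 and 10.5 (3.11 ± 0.57). Mitf, the central regulator of the lineage, was at 237 and 252 against 23.0 and 36.8 (3.03 ± 0.54); it was named for its role after its values were seen. The 3 lower members were Msx2 (2.08 and 6.59 against 96.2 and 34.1), Snai2 (12.7 and 12.8 against 46.5 and 49.7) and Id1 (6.22 and 4.71 against 47.0 and 11.3). Snai2, which is needed for melanocyte migration in the embryo, was thus lower in both melanocyte libraries (-1.83 ± 0.42). Msx2 was highest in the TAC keratinocyte sort at 266 FPKM. It was higher in DF_1 than in DF_2, as was the keratinocyte marker sum, but 2 libraries cannot show that they vary together. The call of Id1 was lost without DF_1 (-0.94, adjusted p = 0.373, limma), without Mc_1 (0.0689) and without Mc_2 (0.132).

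Factors of the mesenchyme were mostly lower. Of 42 in the table, 32 had a lower mean in melanocytes and 15 were at 0 in both melanocyte libraries. Of the 33 tested, 24 were lower, 2 higher and 7 not called (median -2.05), and 19 had passed the filter only through the fibroblasts. Tbx15, a T-box factor that patterns the dermis, was at 1.34 and 0 FPKM against 64.8 and 119 (-5.86 ± 0.49). Ebf1 was at 1.14 and 0.784 against 112 and 102 (-5.79 ± 0.45), and Prrx1 at 0.402 and 2.29 against 73.9 and 112 (-5.42 ± 0.42). Twist1, a driver of mesenchymal fate, was listed at 0 in both melanocyte libraries and at 37.6 and 62.4 in the fibroblasts. Going the other way, the homeobox gene Alx1 was at 12.6 and 13.3 in melanocytes against 0.127 and 1.43 (3.07 ± 0.30), and its means in the other 6 populations were at most 0.432. Foxp2 was the second, at 2.40 and 4.75 against 0.747 and 0.763, and lost its call without Mc_2 (0.95, adjusted p = 0.0591, limma).

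Hox genes, which record position along the body axis, were at or near 0 in the melanocytes. Of 39 in the table, none had a higher mean in melanocytes, 32 had a lower one and 22 were at 0 in both melanocyte libraries, against 7 at 0 in both fibroblast libraries. All 23 that were tested were called lower (median -2.42), but 20 of these had passed the filter through the fibroblasts alone. With 1 library left out, 16 or 17 were called. The highest belonged to the HoxC cluster. Hoxc6 was at 0.179 and 0 FPKM against 34.1 and 33.9, Hoxc8 at 0.172 and 0.462 against 31.8 and 49.4, and Hoxc10 was listed at 0 in both melanocyte libraries against 24.1 and 31.0. No Hox gene reached 3 FPKM in a melanocyte library. The 3 members that did not depend on the fibroblasts for passing included Hoxb3, at 1.5 and 1.13 against 9.28 and 7.19 (-1.99 ± 0.37), and Hoxc13, at 1.16 and 2.83 against 119 and 35.1. Hoxc13 is a hair keratin regulator and was highest in TAC at 279 FPKM. Like the keratinocyte marker sum it was higher in DF_1 than in DF_2, and a link between them was not tested.

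**Figure D5:**
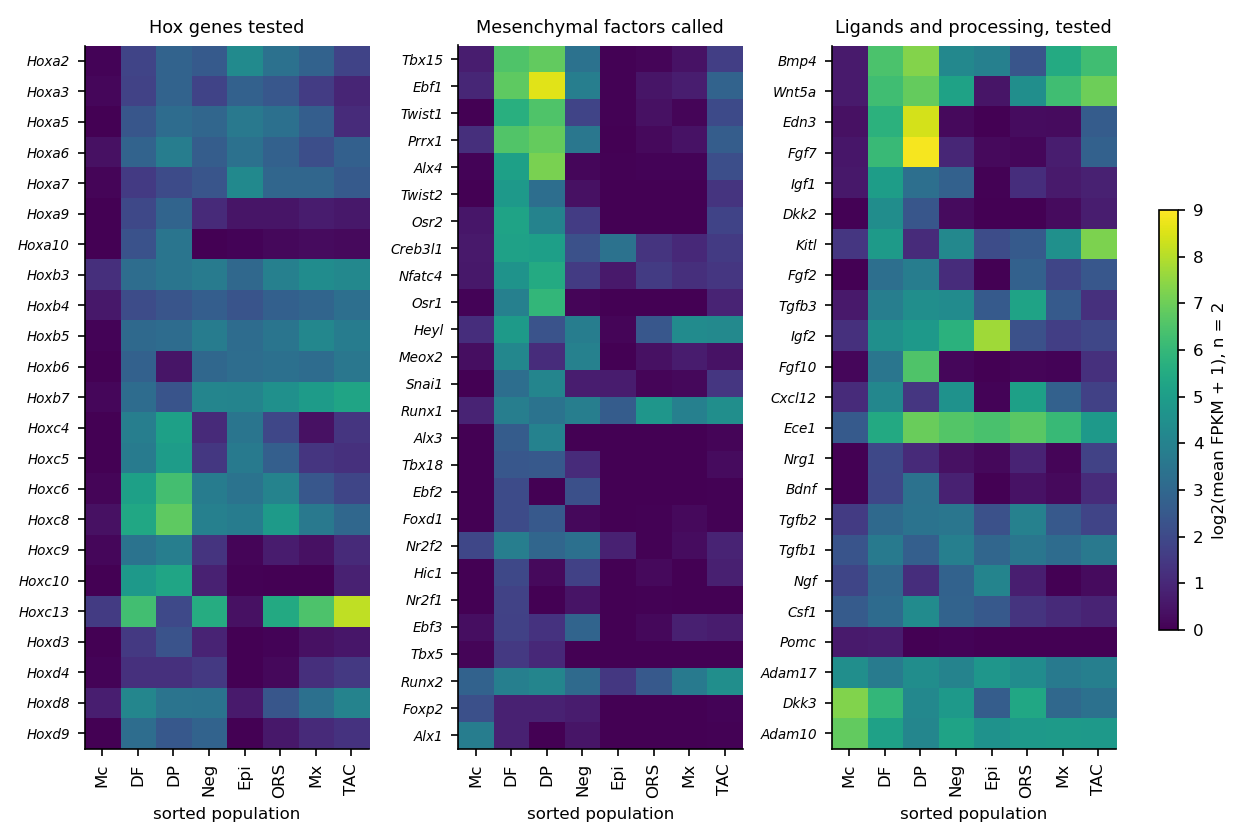
Colour gives log2(mean FPKM + 1), n = 2 libraries, in 8 populations of the same mouse line for the Hox genes tested, the mesenchymal factors called and the melanocyte ligands tested. Mc melanocytes, DF fibroblasts, DP dermal papilla, Neg marker-negative cells, Epi epidermis, ORS outer root sheath, Mx matrix and TAC matrix progenitors; the Mc column is dark for all 23 Hox genes, of which none exceeded 3 FPKM there.

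Most ligands that act on pigment cells, and genes that process them, had a lower mean in melanocytes than in fibroblasts. Of the 30 genes found, 27 had a lower mean in melanocytes, and of 23 tested 16 were lower, 2 higher and 5 not called, 11 having passed through the fibroblasts alone. Edn3, the endothelin that expands melanoblasts, was at 0.276 and 0.362 FPKM against 40.7 and 66.4 (-5.33 ± 0.34). Kitl, the ligand of Kit and named here for that role, was at 1.96 and 1.43 against 33.8 and 24.6 (-3.48 ± 0.49). The side of Kit was set by the gate of the sort, so only the side of Kitl is a result here. The dermal papilla had more Edn3 than the fibroblasts, at 343 ± 58.0 (SD, n = 2), but less Kitl, at 1.15 ± 0.749. Bmp4 (0.670 and 0.447 against 92.5 and 81.2), Wnt5a (0.444 and 0.707 against 81.6 and 68.5) and the keratinocyte growth factor Fgf7 (0.521 and 0.405 against 25.8 and 108) were also lower. Adam10, a protease that sheds ligands from the surface, was higher at 116 and 113 against 29.8 and 38.5 (1.73 ± 0.27). Dkk3 was higher by 1.42 ± 0.41, but its call was lost without DF_1 (adjusted p = 0.218, limma), without Mc_2 (0.109) and with equal totals (1.06, 0.0814).

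Among receptor tyrosine kinases 4 of 38 tested were higher and 25 lower (median -1.75, 13 passing through fibroblasts alone). The 4 were Kit, whose side was set by the gate, Met, Erbb4 and Erbb3. Met, the receptor of hepatocyte growth factor, was at 137 and 117 FPKM against 15.5 and 19.5 (2.79 ± 0.75), with an adjusted p (limma) of 0.00858 that became 0.0582 without DF_1 and 0.0580 without Mc_1. Erbb4 was low in both sorts, at 2.04 and 2.98 against 1.03 and 0.237, and Erbb3 was at 34.8 and 31.2 against 18.3 and 12.4. Neither Erbb call held without DF_2 (0.0968 and 0.266) or without Mc_2 (0.0583 and 0.106), and that of Erbb3 was also lost without Mc_1 (0.172). Of the lower receptors, Pdgfra was at 0.287 and 0.110 against 41.6 and 103 (-5.80 ± 0.44), Pdgfrb at 0.134 and 0 against 37.4 and 34.1, and the collagen receptor Ddr2 at 0.207 and 0.308 against 24.3 and 49.1.

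Genes that report and restrain MAP kinase signalling, which Kit feeds, were divided. Of 18 tested, 6 were higher and 2 lower, with a median of 0.42. Etv5, an ETS factor induced by the pathway, was at 264 and 554 FPKM against 17.7 and 44.4 (3.71 ± 0.40, adjusted p = 8.37e-07, limma). Dusp4, a phosphatase that acts on the kinases, was at 136 and 169.7 against 8.0 and 18.6 (3.53 ± 0.74), and Phlda1 at 1026 and 592 against 117 and 92.2 (2.89 ± 0.49). In the same cells the feedback inhibitor Spry1 was lower, at 4.89 and 4.59 against 20.1 and 22.7, as was Egr1, at 109.8 and 55.3 against 477 and 287. Both lower calls were lost when Mc_2 was left out (adjusted p = 0.117 and 0.0720), when only 3 members were called higher; Etv1 also lost its call then (0.218) and without DF_1 (0.103). Egr1 lost it without DF_1 as well (0.0546), and Spry1 without any of the 4 libraries (0.0907 to 0.129).

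Guidance genes were also mixed, with 6 of 30 semaphorins, plexins and neuropilins higher and 8 lower. Of the 30, 7 had passed the filter through the fibroblasts alone. Plxnc1, a plexin of melanocytes, was at 118 in both melanocyte libraries against 9.30 and 17.1 (3.12 ± 0.58), and Sema6d at 97.7 and 108 against 18.7 and 23.2 (2.25 ± 0.34). Neuropilin 2 (Nrp2), a co-receptor, was at 1.24 and 0.581 against 52.5 and 42.6 (-4.68 ± 0.32), and Sema5b at 0 and 0.115 against 13.7 and 6.5. The smaller differences of Plxna4 and Sema3b were lost without Mc_2 (adjusted p = 0.0626 and 0.213, limma), the first also without DF_1 (0.105), the second without DF_2 (0.0698) and with equal totals (0.0570). Sema3f, lower at -2.11 ± 0.49, was lost without Mc_2 (0.0514).

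The proton pump of lysosomes and melanosomes had most of its tested subunits higher in melanocytes. Of 24 V-ATPase subunits in the table, 20 had a higher mean in melanocytes and 2 a lower one. All 20 with enough signal were tested, 12 were higher and none lower, and the median was 1.35. With equal totals 7 were higher and the median was 0.99, and without Mc_1 7 were higher too. Atp6v0a1, a subunit of the membrane sector, was at 233 and 184 FPKM against 33.8 and 33.2 (2.59 ± 0.26). Atp6v1b2, of the ATP-splitting sector, was at 255 and 149 against 40.6 and 27.1 (2.52 ± 0.30), and Atp6v0c, the proteolipid of the rotor, at 529 and 299 against 100.2 and 63.5 (2.30 ± 0.30). Mc_1 was the higher melanocyte library for all 3, and no gene's fibroblast values reached its melanocyte values.

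Lysosomal enzymes and membrane proteins followed, with 23 of 50 higher, 1 lower and a median of 0.99 (18 higher, 2 lower and 0.64 with equal totals). Hexa, which breaks down gangliosides, was at 86.5 and 64.0 FPKM against 8.88 and 11.5 (2.76 ± 0.51), but lost its call with a pseudocount of 0.1 (adjusted p = 0.0587, limma). The phospholipase Pla2g15 was at 25.1 and 13.0 against 1.19 and 2.70 (2.75 ± 0.49), and the mannosidase Man2b1 at 71.6 and 63.0 against 13.7 and 9.95 (2.43 ± 0.44). Tmem192 was higher by 2.37 ± 0.66, a call lost without DF_2 (adjusted p = 0.266) and without Mc_1 (0.130). The single lower member was Ctsk, a collagen-degrading cathepsin of fibroblasts and bone, at 1.88 and 1.02 against 10.2 and 31.4 (-2.98 ± 0.52).

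Promoters of genes higher in melanocytes were searched for 2 short motifs on both strands, after the differences were known. TCATGTG is the M-box through which Mitf acts on pigment genes, and TCACGTG is a core of the CLEAR element through which Tfeb and its relatives, Mitf among them, act on lysosomal genes. The 2 differ in 1 letter, and overlapping matches were counted once. In windows from 250 bases before to 50 after the start, taken from the RefSeq table of GRCm38.p6, 1165 of 27025 genes (4.31%) held the first and 1160 (4.29%) the second. Of the tested genes 9182 had a window. The M-box was found in 53 of 776 genes higher in melanocytes (6.83%), 25 of 1175 lower (2.13%) and 162 of 7231 not called (2.24%). Outside the pigment list it was in 45 of 752 higher genes (5.98%). The CLEAR-type letters were found in 90 of the 776 (11.6%), 52 of the 1175 (4.43%) and 512 of the 7231 (7.08%).

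By group, either motif was in 18 of 41 lysosomal genes (43.9%), 5 of 19 V-ATPase genes (26.3%) and 15 of 32 pigment genes (46.9%), against 868 of the 9182 tested (9.45%). It was in 3 of 63 respiratory chain genes (4.76%) and 3 of 23 glycolysis genes (13.0%). Among groups lower in melanocytes, 6 of 22 Hox promoters (27.3%) and 4 of 17 of the insulin-like growth factor axis (23.5%) held one. These group shares cover all listed genes with a window, tested or not, whereas the 9.45% covers tested genes only. Over all called genes the shares were 17.1% of the higher and 6.47% of the lower, and these differences were not tested. A match describes letters in a window and is no evidence of binding. The 250 bases before the start are printed for 5 genes higher in melanocytes, chosen after their values were seen, because they show the motifs in a lysosomal membrane protein, a lysosomal protease, a pump subunit, a prostaglandin enzyme and the connexin. Capitals mark TCATGTG or TCACGTG on either strand, and each sequence reads 5′ to 3′ in the direction of the gene.
Lamp1 (chr8:13158911-13159160, + strand): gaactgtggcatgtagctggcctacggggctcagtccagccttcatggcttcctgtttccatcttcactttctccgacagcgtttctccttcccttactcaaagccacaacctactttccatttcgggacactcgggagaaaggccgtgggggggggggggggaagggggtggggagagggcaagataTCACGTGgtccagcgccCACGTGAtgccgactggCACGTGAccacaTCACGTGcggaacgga
Ctsd (chr7:142387828-142388077, - strand): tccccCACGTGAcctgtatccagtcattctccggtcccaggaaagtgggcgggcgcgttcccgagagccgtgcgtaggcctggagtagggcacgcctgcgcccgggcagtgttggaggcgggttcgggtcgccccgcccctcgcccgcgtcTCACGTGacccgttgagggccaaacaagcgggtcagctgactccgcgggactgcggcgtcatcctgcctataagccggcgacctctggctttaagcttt
Atp6v0c (chr17:24169451-24169700, - strand): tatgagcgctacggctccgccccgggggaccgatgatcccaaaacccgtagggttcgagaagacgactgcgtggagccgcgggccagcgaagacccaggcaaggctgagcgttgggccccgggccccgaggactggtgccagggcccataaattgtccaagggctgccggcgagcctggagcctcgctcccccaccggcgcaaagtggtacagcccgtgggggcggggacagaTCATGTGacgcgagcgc
Hpgds (chr6:65144731-65144980, - strand): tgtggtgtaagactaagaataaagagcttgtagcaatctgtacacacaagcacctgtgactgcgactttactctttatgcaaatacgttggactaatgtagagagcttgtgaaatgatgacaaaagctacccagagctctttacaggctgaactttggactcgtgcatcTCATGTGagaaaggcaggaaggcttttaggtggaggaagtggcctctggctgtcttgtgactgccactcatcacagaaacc
Gjb1 (chrX:101376126-101376375, + strand): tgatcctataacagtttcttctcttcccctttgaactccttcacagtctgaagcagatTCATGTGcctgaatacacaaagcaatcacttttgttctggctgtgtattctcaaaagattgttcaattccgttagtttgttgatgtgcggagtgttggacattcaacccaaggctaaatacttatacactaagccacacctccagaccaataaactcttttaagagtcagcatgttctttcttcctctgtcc

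Lamp1, the main membrane protein of lysosomes, held 4 CLEAR-type matches within 62 bases of the start. It was at 376 and 267 FPKM in the melanocytes against 134 and 133 (1.24 ± 0.20), a size that fell under the threshold with equal totals (0.88) and, at 1.0, without Mc_1. Ctsd, cathepsin D, held 2 and was at 439 and 350.3 against 119 and 94.6 (1.87 ± 0.25). Atp6v0c held the M-box 17 bases before the start, with the levels given above. Hpgds, which makes prostaglandin D2, held it 81 bases before the start and was at 23.1 and 31.3 against 2.34 and 1.68 (3.22 ± 0.40), and Gjb1 held it 192 bases before.

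Energy metabolism was higher in melanocytes in part. Of 24 glycolysis and lactate genes tested 12 were higher and 3 lower, with a median of 1.43, and with equal totals 12 were higher and 4 lower. Ldhb, which turns lactate into pyruvate, was at 155 and 113 FPKM against 23.3 and 17.0 (2.67 ± 0.42). Eno1 was at 169 and 164 against 47.8 and 36.6 (1.97 ± 0.33), and Pgk1 at 167 and 177 against 50 and 37.8 (1.96 ± 0.31). The lower genes were isoforms or regulators: the second enolase Eno2, at 0.643 and 0.0412 against 4.48 and 8.82 (-2.49 ± 0.40), the kinase Pfkm (-1.39 ± 0.36) and Pfkfb3 (-1.19 ± 0.40). The 2 enolases thus lay on opposite sides, with Eno1 higher in both melanocyte libraries and Eno2 higher in both fibroblast libraries. Pfkfb3 lost its call without DF_1 (adjusted p = 0.0950, limma), DF_2 (0.131) or Mc_1 (0.228).

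Of 76 respiratory chain genes encoded in the nucleus, 18 were called higher and 58 were not called, with a median of 0.88. All but 1 had a higher mean in melanocytes, as did 77 of the 78 ribosomal protein genes, of which none was called. The number of respiratory chain genes called higher was 4 with equal totals (median 0.52), 10 without DF_2 and 3 without Mc_1, so it rests on the scaling and on those libraries. Of the 4 largest, Ndufb2, Ndufa1 and Uqcr10 lost their calls without Mc_1 (adjusted p = 0.210, 0.104 and 0.0907, limma), the first 2 also without DF_1 (0.183 and 0.248) and the last without DF_2 (0.0841). Atp5g3, a ring subunit of ATP synthase, held throughout, at 344 and 225 FPKM against 127 and 78.5 (1.47 ± 0.29). Ppargc1a, a coactivator that raises mitochondrial content, was at 14.6 and 11.7 against 3.43 and 2.92 (1.76 ± 0.38), and lost its call with a pseudocount of 0.1 (0.0547). The creatine transporter Slc6a8 was at 83.7 and 82.4 against 33.7 and 21.7 (1.58 ± 0.32), whereas Gatm, which makes the precursor of creatine, was at 0 and 0.0464 against 7.17 and 11.3 (-3.29 ± 0.49). Together with other mitochondrial regulators this group had 6 of 19 higher and 2 lower. Tfb1m and Ucp2, its weakest calls, were lost without Mc_2 (adjusted p = 0.236 and 0.0856), and without DF_2 (0.209) and DF_1 (0.147) in turn.

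Antioxidant and glutathione genes had 12 of 40 higher and 2 lower (median 0.53, 8 higher with equal totals, 7 without Mc_1). Gstp1 was at 379.8 and 227 FPKM against 40.6 and 30.4 (3.03 ± 0.40), its reads possibly shared with Gstp2. Gsta4 was higher by 2.82 ± 0.92, a call lost without DF_1 (adjusted p = 0.182, limma), Mc_1 (0.137) or Mc_2 (0.0828). Mgst3 was lower, at 8.91 and 8.04 against 96.4 and 24.6. Nqo1 was listed at 0 in both melanocyte libraries against 1.38 and 1.58, and its call was lost without any 1 library (0.0622 to 0.0933).

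Of 26 metal transport and storage genes 6 were higher and 4 lower. Transferrin led the first, and the membrane oxidase Heph, which loads iron onto it, led the second at 0.116 and 0.0267 FPKM against 7.22 and 12.4 (-3.30 ± 0.36). The iron exporter Slc40a1 was also lower, at 0.829 and 0.723 against 7.79 and 6.98 (-2.24 ± 0.52). Mt1 and Ftl1 were higher by 2.25 ± 0.64 and 1.59 ± 0.42 and lost their calls without DF_2 (adjusted p = 0.222 and 0.0962, limma) and without Mc_1 (0.134 and 0.121), where 2 members were called higher. Atp7a, the copper pump that feeds tyrosinase, was at 39.1 and 53.0 against 15.5 and 26.7, a call lost without DF_1 (0.279), Mc_1 (0.0545) or Mc_2 (0.207). Steap4, lower at -2.56 ± 0.67, lost its call without DF_2 (0.158), and Slc39a10, lower at -1.09 ± 0.37, without DF_1 (0.321), Mc_1 (0.132) or Mc_2 (0.120). Cholesterol synthesis had 3 of 22 higher and none lower, led by Dhcr7 at 63.5 and 49.0 against 16.9 and 16.3 (1.69 ± 0.28).

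The insulin-like growth factor axis was the group with the lowest median, -3.17. None of its 17 tested members was called higher and 13 were lower, 6 of the 17 having passed through the fibroblasts alone. Another 3 had a positive difference, up to 1.57. With only the 16 libraries of the K14-H2BGFP line fitted, 2 were called higher. Besides Igfbp5, the binding protein Igfbp4 was at 2.98 and 0.376 FPKM against 88.7 and 82.8 (-5.21 ± 0.52), and Igfbp7 at 6.16 and 3.08 against 209.7 and 120.2 (-4.89 ± 0.82). Htra1, a protease that cuts such binding proteins, was at 0.533 and 0.654 against 38 and 56.7 (-4.90 ± 0.51). Imprinted growth genes, of which several belong to the same network, had 9 of 18 lower and none higher (6 passing through fibroblasts alone). Peg3 was at 3.18 and 2.03 against 71.0 and 201 (-5.08 ± 0.42), the non-coding RNA H19 at 0.774 and 0.332 against 20.7 and 42.9 (-4.33 ± 0.51), and the cell cycle inhibitor Cdkn1c at 0.163 and 0.942 against 13.9 and 17.6 (-3.47 ± 0.76). Both melanocyte libraries were below 4 FPKM for each of these 3.

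In the TGF-beta and BMP pathway 23 of 45 members were lower and 3 higher (11 passing through fibroblasts alone). Ligands and their binders were lower: besides Inhba and Bmp4, the BMP-binding Fstl1 was at 4.19 and 6.04 FPKM against 212 and 545 (-5.82 ± 0.35), and Ltbp1, which stores latent TGF-beta in the matrix, at 0.216 and 1.26 against 51.3 and 74.2 (-5.24 ± 0.35). The 3 higher members lie inside the cell. Smad9, a transducer of BMP signals, was at 9.66 and 13.2 against 1.59 and 1.56 (2.26 ± 0.35). Id2 and Id4 were higher by 1.63 ± 0.45 and 1.61 ± 0.55, calls lost without DF_1 (adjusted p = 0.130 and 0.231, limma), that of Id2 also without Mc_1 (0.102), and that of Id4 without DF_2 (0.0529) or Mc_2 (0.375) and with equal totals (0.135).

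Wnt receptors, antagonists and targets had 13 of 35 lower and 4 higher (9 passing through fibroblasts alone). Secreted antagonists lay on both sides. Among the lower members Sfrp2 was at 1.43 and 0.223 FPKM against 38.2 and 86.8 (-5.09 ± 0.71), Dkk2 at 0.0495 and 0 against 11.7 and 28.4, and Sfrp1 at 2.16 and 0.622 against 27.3 and 50.4 (-4.07 ± 0.44). The higher members were Nkd1 (1.77 ± 0.48), Tcf7 (1.56 ± 0.47), Sfrp4 (1.48 ± 0.41) and Dkk3. Without Mc_2 none was called (adjusted p = 0.122, 0.0746, 0.123 and 0.109, limma), and with equal totals 1 was. Without DF_1 the calls of Nkd1 and Sfrp4 were lost (0.0924 and 0.0725), as was that of Tcf7 without DF_2 (0.198) or Mc_1 (0.0910). Axin2, a common readout of the pathway, was at 75.8 and 63.0 against 50.8 and 35.9 and was not called (0.394).

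Matrix genes other than collagens were the largest group on the fibroblast side: 45 of 59 tested were lower and 2 higher (median -2.57, 19 passing through fibroblasts alone). The 2 exceptions were Gpc1, a cell-surface heparan sulfate proteoglycan, at 65.5 and 44.2 FPKM against 17.0 and 8.97 (2.03 ± 0.40), and Prelp, at 21.4 and 28.2 against 7.96 and 9.64. Prelp lost its call without DF_1 (adjusted p = 0.128, limma), DF_2 (0.0675), Mc_1 (0.0566) or Mc_2 (0.158) and with equal totals (0.127). Collagen processing enzymes had 15 of 27 lower and 2 higher (5 passing through fibroblasts alone). Pcolce, an enhancer of procollagen trimming, was at 3.23 and 0.451 against 93.9 and 77.4 (-5.12 ± 0.44), opposite to its relative Pcolce2. The cross-linking oxidase Lox was at 1.12 and 0.264 against 28.6 and 81.0 (-4.91 ± 0.93). The other higher enzyme, Plod1 at 1.0 ± 0.35, lost its call without any 1 library (0.0831 to 0.188) and with equal totals (0.184).

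Matrix proteases and their inhibitors had 20 of 33 lower (10 passing through fibroblasts alone) and 1 higher, the last being Plat. Adamts15 was at 0.0402 and 0.139 FPKM against 18.1 and 16 (-4.05 ± 0.39), and Mmp11 at 1.66 and 0.294 against 14.8 and 21.9 (-3.36 ± 0.53). Fap, a surface protease of activated fibroblasts, was listed at 0 in both melanocyte libraries against 7.53 and 14.3. Chemokine, complement and cytokine receptor genes had 15 of 30 lower and 1 higher (11 passing through fibroblasts alone). Serping1, the inhibitor of the first complement component, was at 0.377 and 0.744 against 40.6 and 52.9 (-4.93 ± 0.36), while the complement component C2 was at 67.1 and 54.1 against 12.1 and 10.3 (2.33 ± 0.45). Members of 1 cascade thus lay on both sides.

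Adhesion differed by family. Of 14 cadherins and catenins tested 5 were higher and 3 lower. E-cadherin (Cdh1), the adhesion molecule that joins melanocytes to keratinocytes, was at 122 and 83.4 FPKM against 36.1 and 16.4 (2.01 ± 0.46), and P-cadherin (Cdh3) at 183 and 130.4 against 80.2 and 27.9 (1.68 ± 0.38). Both are also keratinocyte genes, both were higher in DF_1 than in DF_2, and without DF_2 both calls were lost (adjusted p = 0.0695 and 0.0983, limma), leaving 3 of 14 higher. Beta-catenin (Ctnnb1) was at 622 and 579.7 against 224 and 222 (1.42 ± 0.21). With quantile normalization its difference was 0.96, under the threshold, and 2 of the 14 genes were called higher. With equal totals 3 of the 14 were called higher. Cdh11, a cadherin of mesenchyme, was at 3.55 and 13.7 against 98.8 and 199 (-4.11 ± 0.49), and N-cadherin (Cdh2) was not called at 10.8 and 6.96 against 9.82 and 11.2. Of 16 integrin subunits none was higher and 10 were lower, 7 of the 16 having passed through fibroblasts alone. Itga8 was at 0 and 0.0894 against 10.2 and 15.7 (-3.71 ± 0.37), Itga1 at 0.463 and 0.966 against 14.8 and 24.2 (-3.56 ± 0.38), and Itgb4, a subunit of basal keratinocytes, at 0.238 and 0.137 against 15.9 and 4.27. The common beta subunit Itgb1 did not pass, at 77.5 and 111 against 89.4 and 149 (-0.31 ± 0.30).

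Cytoskeletal genes had 13 of 27 lower and 2 higher (6 passing through fibroblasts alone). Des, the muscle intermediate filament also found in pericytes, was at 0.139 and 0 FPKM against 37.8 and 18.8 (-4.70 ± 0.51), Tubb4a at 0.246 and 1.09 against 28.3 and 17.6 (-3.86 ± 0.40), and vimentin (Vim) at 179 and 103 against 609.7 and 680.5 (-2.23 ± 0.30). The neuronal tubulin Tubb3 was higher, at 22.6 and 33.0 against 11.5 and 2.29, a call lost without DF_2 (adjusted p = 0.235, limma) and Mc_2 (0.0861). Dync1i1, a dynein chain, was the other at 2.38 and 2.20 against 0.448 and 0. Channel and gap junction genes had 14 of 31 lower and 3 higher, 13 passing through fibroblasts alone. Kcnj8, a potassium channel of pericytes, was listed at 0 in both melanocyte libraries against 19.8 and 21.6, and Gja1, the main connexin of fibroblasts, was at 13.0 and 28.4 against 115 and 199.6 (-2.92 ± 0.34). The connexins Gja1 and Gjb1 thus lay on opposite sides. Of the higher 3, the melanocyte channel Trpm1, at 1436 and 1241 against 150.4 and 141, lost its call without DF_2 (0.0533) or Mc_1 (0.0602), P2rx4 without DF_2 (0.196), Mc_1 (0.0990) or Mc_2 (0.108), and Ano1 without DF_2 (0.105) or Mc_2 (0.140). Synaptic and neurosecretory genes had 4 of 20 higher and 5 lower, with 5 of the 20 passing through fibroblasts alone. Stx1a and Syngr2, the higher members besides Npy and Syngr1, lost their calls without DF_2 (0.112 and 0.251), Mc_1 (0.102 and 0.0672) or Mc_2 (0.164 and 0.0899), Stx1a also without DF_1 (0.144). Of the 5 lower members 1 or 2 were called with a library left out.

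Genes of cell division were not called. None of 43 S phase and mitosis genes was called in either direction, and their median was 0.14, next to 0.13 for all genes. Mki67, a marker of cycling cells, was at 81.9 and 50.9 FPKM against 104 and 62.5, with a 95% interval of its log2 difference from -1.52 to 0.88. Top2a was at 66.5 and 40.6 against 56.6 and 36.2 (-1.10 to 1.49). The interval of Top2a allows a difference of more than 1 log2 unit either way, and that of Mki67 only a lower level of that size in melanocytes. Of 21 G1 cyclins and cell cycle inhibitors 3 were higher, 7 lower and 11 not called. Cdk2 was at 201 and 118 against 34.4 and 24.5 (2.37 ± 0.37). RefSeq places Cdk2 (chr10:128697938-128705051, GRCm38.p6) inside the span of the pigment gene Pmel (chr10:128695888-128720238), and as the strand of the counting is not given, reads of the 2 cannot be told apart. The inhibitor Cdkn1a was at 14.4 and 6.34 against 129.8 and 56.3 (-3.03 ± 0.44) and Mycn at 0.104 and 0.0418 against 11.7 and 3.23 (-2.77 ± 0.52). Both were higher in a keratinocyte sort than in the fibroblasts, Cdkn1a at 331 in TAC and Mycn at 34.9 in Mx. Cdk4 and Myc were higher by 1.09 ± 0.35 and 1.05 ± 0.38, calls lost without DF_2 (adjusted p = 0.451 and 0.482, limma), without Mc_1 (0.315 and 0.142) and with equal totals (0.116 and 0.223), that of Myc also without Mc_2 (0.148). Mycl1 was lower at -2.22 ± 0.49 and lost its call without DF_1 (0.0706).

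Bcl2 family genes had 2 of 13 higher and none lower. Bcl2, a survival factor on which melanocyte stem cells depend, was at 37.0 and 37.5 FPKM against 29.9 and 54.0 and was not called (-0.11 ± 0.29). The higher 2, Bid and Bak1, lost their calls without DF_2 (adjusted p = 0.204 and 0.171, limma) and Mc_1 (0.167 and 0.0996), Bid also without DF_1 (0.0554) and Mc_2 (0.0782).

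Early response and heat shock genes, which tissue dissociation can raise, had none of 25 higher and 7 lower (median -0.73). Egr3 was at 0.530 and 0.994 FPKM against 52.7 and 12.8 (-3.96 ± 0.55), Fosl2 at 5.70 and 2.73 against 80.6 and 54.6 (-3.75 ± 0.36), and Btg2 at 8.09 and 4.99 against 60.4 and 58.8 (-3.04 ± 0.48). Fos and Jun were not called, at 202 and 110.3 against 165 and 140.3 and at 272 and 175 against 228 and 174. Without Mc_2, 4 members were called lower. None of 78 cytosolic ribosomal protein genes was called, with a median of 0.57 (0.21 with equal totals), and without DF_1 6 were called higher. The genes with the highest shared levels were Lars2 at 5983 and 5052 against 3967 and 4558, and Rps27, Rpl10, Rpl10a and Rps23, whose log2 differences lay between 0.10 and 0.44.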

How the data were processed

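RNA of sorted cells from postnatal day 5 back skin was sequenced after amplification of 6 ng of RNA, with RNA integrity of at least 8.8, per the labels' protocols. The authors deposited 1 table of FPKM for 28 libraries. TopHat2 2.0.3, Bowtie2, Cufflinks 2.1.1 and the build mm10 are named in the submitters' processing notes. Further scaling of the FPKM, the annotation and the strand setting were not given in the sources used here, and no counts were used, so depth is unknown.

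Of 23235 rows, 220 identical to another were dropped and 23015 kept, of which 64 share a symbol and 170 join several gene names. Values were compared as log2(FPKM + 1) with limma 3.58.1 in R 4.3.3 (trended variance, 1 mean per population, all 28 libraries sharing the spread, 14 residual and 6.0 prior degrees of freedom). The contrast was melanocytes minus fibroblasts, with Benjamini-Hochberg adjustment over the 12506 genes that reached 1 FPKM in 2 of the 4 libraries. The procedure was tested on simulated data. Of 100 genes changed by 2 log2 units 69 were called, and of 100 changed by 3 units 89. Of 11688 unchanged genes 6 were called. The changed genes had a mean log2(FPKM + 1) above 2, so low genes were not covered. Tables, motif searches and figures were made in Python 3.11.

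The members and lists (34 gene groups and 12 marker lists) were chosen with earlier results of these data known. Over the 34 groups 1246 members were listed, 1214 were in the table, 160 fell below the filter and 1054 were tested, 190 of them passing only through the fibroblasts; a gene in several lists counts in each. Named genes were the gate genes, the 15 largest called differences in each direction (5 FPKM or more on average in the sort that was higher, without pigment genes, collagens, predicted or joined names and genes at 0 in both libraries of the lower sort), up to 4 called members per group and direction with some members that were not called, the 5 highest genes of like level, and the genes that differed most between replicates. Genes printed outside this rule, the promoters and the motifs were chosen after their values were seen. Alternatives changed the pseudocount, filter, scaling, libraries fitted, replicate block and each replicate.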

Additional observations from a re-analysis of the deposited data

How the results depend on the processing

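The counts of called genes depended on the pseudocount, the filter, the scaling and the libraries. The main counts were 2773 called, 1060 higher and 1713 lower in melanocytes. A filter of at least 5 FPKM left 1019 lower, and a pseudocount of 5 left 1727 called and 985 lower. Equal FPKM totals, chosen after seeing the data, gave 613 higher. When the spread came from the 4 libraries alone, 2281 genes were called, 842 higher and 1439 lower, and 22 named genes lost the call. With 1 replicate left out, 2109 to 2273 genes were called, 698 to 861 higher and 1377 to 1430 lower, the fewest higher (698) without Mc replicate 1. A lone remaining library was then assumed to vary like the other populations. The Lef1 log2 difference, not called at 0.19, reversed to -0.17 with equal totals and -0.15 with quantile normalization, and ranged from -0.38 (without DF replicate 2) to 0.76 (without DF replicate 1) with 1 replicate left out, at -0.12 without Mc replicate 2. Of 213 called named genes, 65 lost the call in at least 1 of 14 settings. Of 46 list medians, 21 moved by over 0.5 with a pseudocount of 5 and 16 with 0.1. The cause of these changes was not tested. The labels do not say whether same-numbered libraries share an animal or a day. Their deviations correlated across genes at 0.2997, and with 2 pairs this does not settle a pairing, so the libraries were treated as unpaired. With the replicate block 3154 genes were called, 1279 higher and 1875 lower, and it changed no call among 215 named genes. Depth is unknown, so no limit from counting can be given.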

Other observations

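Some genes differed strongly between replicates of one sort. In the melanocytes Iqgap2, a scaffold of the cytoskeleton, was at 42.6 FPKM in Mc_1 and 4.12 in Mc_2, and the lectin gene Lgals3 at 38.9 and 4.27. The protease inhibitor Serpine2 went the other way at 14.7 and 75.5. The histone genes Hist1h2bh and Hist1h2bf were higher in library 1 by 3.22 and 3.16 on the log2 scale, though reads of such near-identical genes may be split.

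In the fibroblasts the proteasome gene Psmb5 was at 1569 FPKM in DF_1 and 36.3 in DF_2, and the nuclear pore gene Nupl1 at 627 and 31.8. The melanocyte libraries were near the lower of these, at 88.0 and 70.6 for Psmb5 and 31.6 and 30.2 for Nupl1. Neither gene was called (limma adjusted p = 0.485 and 0.0518). The keratins Krt79 (45.9 and 3.16) and Krt73 (67.9 and 8.32) were also higher in DF_1, the fibroblast library with the higher keratinocyte marker sum.

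The largest positive difference of any gene tested, 6.16 for the small nucleolar RNA Snora33, was not called (adjusted p = 0.276, limma). It was at 4230 and 2164 FPKM in the melanocytes and 1792 and 0 in the fibroblasts.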
